A study of Homo sapiens with 7 samples.

Results

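The genes described here are the chemokine receptors and chemokine ligands, 53 genes of the 20163 protein-coding genes in the annotation. They comprise 27 receptors and 26 ligands. The receptors are 16 chemokine receptors, 5 atypical receptors and 6 receptors for other chemoattractants, and the ligands are 10 of the CC type, 14 of the CXC type and 2 of the C and CX3C types. They were chosen by name, and a summit was counted for a gene when it lay within the gene or 5 kb to either side of it. The data are ChIP-seq, in which chromatin is pulled down with an antibody and its DNA is sequenced to map where a protein or a histone modification sits. Kasumi-1 cells were used, an established line of myeloblasts in which chromosomes 8 and 21 are translocated, so that the fusion protein AML1-ETO is made beside normal AML1 (RUNX1). There was 1 list of peaks for each of 5 antibodies, against AML1, ETO (for AML1-ETO), the co-repressor N-CoR, the co-activator p300, and H3K4me3, a histone mark of transcription initiation. The AML1 antibody was directed to a part of AML1 that the fusion lacks. All lists came from the same untreated line, grown in log phase, so the comparisons below are between antibodies and between genes, within 1 cell line.

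Chemokines are small secreted proteins that steer the movement of blood cells, and their receptors are proteins of the cell surface that couple to G proteins. CXC and CC ligands differ in the spacing of their first cysteines. Atypical receptors bind their ligands without G protein signalling, and some of them, such as ACKR2, remove chemokines. The receptors for complement fragments, formyl peptides and chemerin guide the same cells by other signals. In the bone marrow, CXCR4 and its ligand CXCL12 are known for holding hematopoietic progenitors in place, while CXCL8 and its relatives draw neutrophils into tissue.

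The AML1 list held 11692 summits, the AML1-ETO list 18087, the N-CoR list 10004, the p300 list 11020 and the H3K4me3 list 19632. They give positions only, so the depth, the height of a peak and its p-value are unknown from them, and with 1 pooled list per antibody there is no spread between replicates and no test of a difference. A summit that is missing from a list is one that was not called at the authors' threshold. The peak names in the N-CoR list begin with "eto", and those in the p300 and H3K4me3 lists begin with "aml1", so these 3 lists carry the name of another antibody. None of these 3 is a copy of the list so named: 92 summits had the identical base in N-CoR and AML1-ETO, 38 in p300 and AML1, and 0 in H3K4me3 and AML1, where AML1 and AML1-ETO shared 120. Their windows overlapped more often, 70.3% of the N-CoR windows with AML1-ETO, 28.0% of the p300 windows with AML1, and 0.525% of the H3K4me3 windows with AML1. These values do not test the labels. The size of each list is the one that the paper reports for the antibody on its label, at the same threshold. The shares of overlapping peaks that the paper gives for pairs of these antibodies were also found here, on rounding. The labels are thus those under which the paper counted the peaks, and each list was taken as the labels describe it. Why the peak names differ was not tested. The cell type was checked with H3K4me3 within 1000 bp of a transcription start, which was present at 7 of 7 myeloid progenitor genes (MPO, CD33, CD34, KIT, SPI1, CSF3R and ELANE). It was absent from the 3 B cell, 3 erythroid and 2 hepatocyte genes, and present at 1 of 4 T cell genes (CD8A) and 1 of 3 epithelial genes (EPCAM).

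The sequences that follow show what lies under the AML1-ETO summits which overlapped most of the other lists. Each is the reference sequence of GRCh37, plus strand, 5′ to 3′, 100 bases centred on the summit. Capitals mark the Runx sequences TGTGGT or TGCGGT, the ETS sequence AGGAAG and the PU.1 sequence GAGGAA on either strand. AGGAAG and GAGGAA overlap where they are joined, as in CTTCCTC on the other strand. The first 4 windows overlapped AML1, N-CoR and p300, and the last 2 overlapped AML1 and N-CoR.

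CX3CR1 downstream, chr3:39302527-39302626: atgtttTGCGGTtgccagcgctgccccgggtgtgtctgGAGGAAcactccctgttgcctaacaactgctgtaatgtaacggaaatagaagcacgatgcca

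CMKLR1 intron, chr12:108707675-108707774: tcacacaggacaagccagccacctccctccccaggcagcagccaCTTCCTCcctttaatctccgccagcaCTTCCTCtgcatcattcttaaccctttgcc

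CXCL1 downstream, chr4:74738715-74738814: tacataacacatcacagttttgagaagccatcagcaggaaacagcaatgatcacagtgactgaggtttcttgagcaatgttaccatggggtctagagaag

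CXCL2 downstream, chr4:74960065-74960164: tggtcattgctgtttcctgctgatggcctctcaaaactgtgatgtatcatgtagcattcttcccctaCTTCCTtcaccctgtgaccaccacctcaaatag

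CCR3 intron, chr3:46263061-46263160: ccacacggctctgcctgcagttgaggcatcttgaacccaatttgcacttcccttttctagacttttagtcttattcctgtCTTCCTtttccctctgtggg

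CCL20 downstream, chr2:228683524-228683623: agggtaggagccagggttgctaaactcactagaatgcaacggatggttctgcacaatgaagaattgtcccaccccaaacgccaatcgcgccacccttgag

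At CXCL8 the summits lay in the transcribed leader, and only the 30 bases around the ETS sequence are shown.

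CXCL8 promoter, chr4:74606322-74606351: aggacaagagccAGGAAGaaaccaccggaa

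Of the AML1-ETO windows of these 7 sites, that of CX3CR1 held TGCGGT, and none held TGTGGT. The latter did lie in the AML1 windows of the CXCL2 and CCR3 sites, whose summits were 20 and 3 bp from those of AML1-ETO. The CMKLR1 window held a pair of joined ETS and PU.1 sequences, whereas the CXCL1 and CCL20 windows held none of the 4 words.

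Of the 53 chemokine genes, 30 (56.6%) had no summit within 5 kb in any list, against 25.8% of all protein-coding genes. This depended on the distance: with 50 kb to either side 9 genes (17.0%, background 12.9%) had none, and by nearest coding start 21 (39.6%, background 28.0%). AML1 had a summit at 15 genes (28.3%) where 34.9% of all protein-coding genes had one, and AML1-ETO at 16 (30.2%) where the share was 41.3%. N-CoR was found at 11 genes (20.8%, background 26.7%), p300 at 8 (15.1%, background 45.5%) and H3K4me3 at 12 (22.6%, background 68.0%). In each list the share of chemokine genes was thus below that of all genes, by the widest margin for H3K4me3 and p300. For AML1, AML1-ETO and N-CoR this depended on how summits were assigned: with each summit given to the nearest coding start at any distance, the shares were 37.7%, 50.9% and 32.1%, above backgrounds of 34.5%, 40.9% and 26.9%. For p300 and H3K4me3 they stayed below the background under every assignment tried. At least 1 of the 4 proteins was found at 19 genes (35.8%, background 61.5%), 10 of the 27 receptors and 9 of the 26 ligands.

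**Figure D1:**
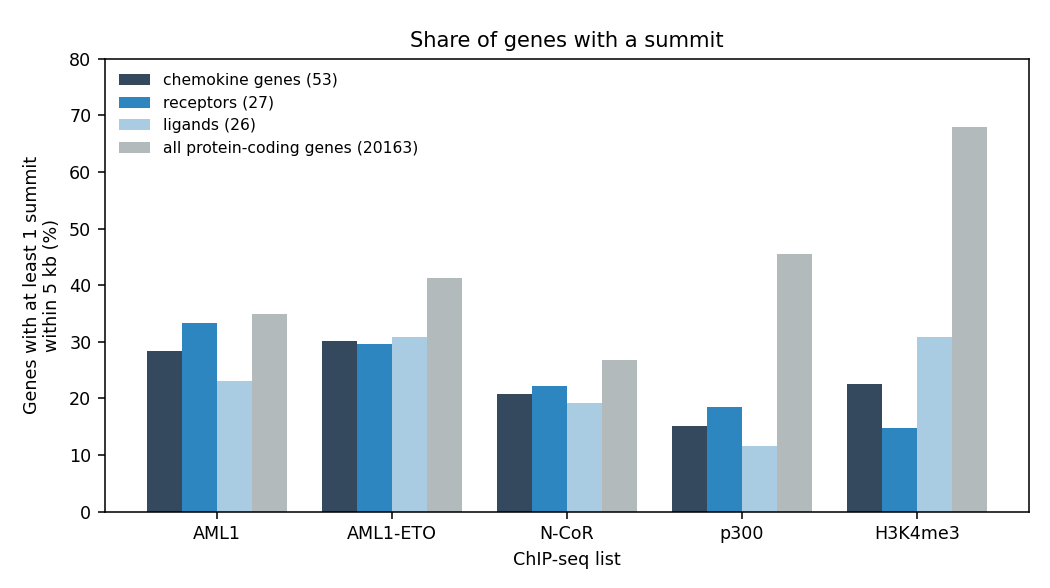
Share of genes (vertical axis, %) with at least 1 summit within 5 kb in each list (horizontal axis), for the 53 chemokine genes, the 27 receptors, the 26 ligands and all 20163 protein-coding genes. The bars of the chemokine genes stand below the grey bars in all 5 lists, from 28.3% against 34.9% for AML1 to 22.6% against 68.0% for H3K4me3, and have no error bars because there was 1 list per antibody.

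Chemokine genes are short, and a short gene gives fewer positions at which a summit can be counted. Their median span was 7419 bp (13896 bp for receptors and 5189.5 bp for ligands), against 27219 bp for all protein-coding genes. Counted per megabase of sequence searched, summits of AML1, AML1-ETO and N-CoR at the chemokine genes were not sparser than around all protein-coding genes. Density can depend on gene length too, since the 5 kb to either side make up more of the sequence searched at short genes. Genes of like length were not compared. AML1-ETO had 15.7 summits per Mb over the 1403.3 kb around the chemokine genes and 9.22 around all protein-coding genes. The values were 12.8 and 5.86 per Mb for AML1, 9.98 and 5.03 for N-CoR, 7.84 and 6.64 for p300, and 15.7 and 12.4 for H3K4me3. The H3K4me3 and p300 values over the 53 genes fell below the background when 1 gene was left out. Without CCR10, which holds 5 of the 22 H3K4me3 summits, the density of the mark was 12.2 per Mb, and at the receptors alone it was 12.4 with CCR10 and 6.90 without it. At the ligands it was 21.2, and at least 17.8 with any 1 ligand left out. Without ACKR2, which holds 3 of the 11 p300 summits, that of p300 was 6.11, and without CXCL1 it was 6.47, both below the background. With any 1 of the 53 genes left out, the lowest values were 11.5 for AML1, 14.0 for AML1-ETO and 8.63 for N-CoR. For these 3 lists the share of genes thus lay below the background and the density above it, and how far gene length accounts for the lower shares was not tested.

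The combinations of lists at a gene were counted next. A protein summit without H3K4me3 was found at 11 chemokine genes (20.8%), against 6.18% of all genes. H3K4me3 together with a protein was found at 8 (15.1%, background 55.3%), and H3K4me3 with none of the 4 proteins at 4 (7.55%, background 12.7%). All 4 proteins were found at 6 genes (11.3%, background 15.4%): CX3CR1, ACKR2, CMKLR1, CXCL1, CXCL2 and CXCL8. A further 4 genes had 3 proteins, 5 had 2 and 4 had 1. The shares of all protein-coding genes with these numbers were not counted, so these counts have no background. Both the genes with 3 proteins and those with 4 included receptors and ligands.

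**Figure D2:**
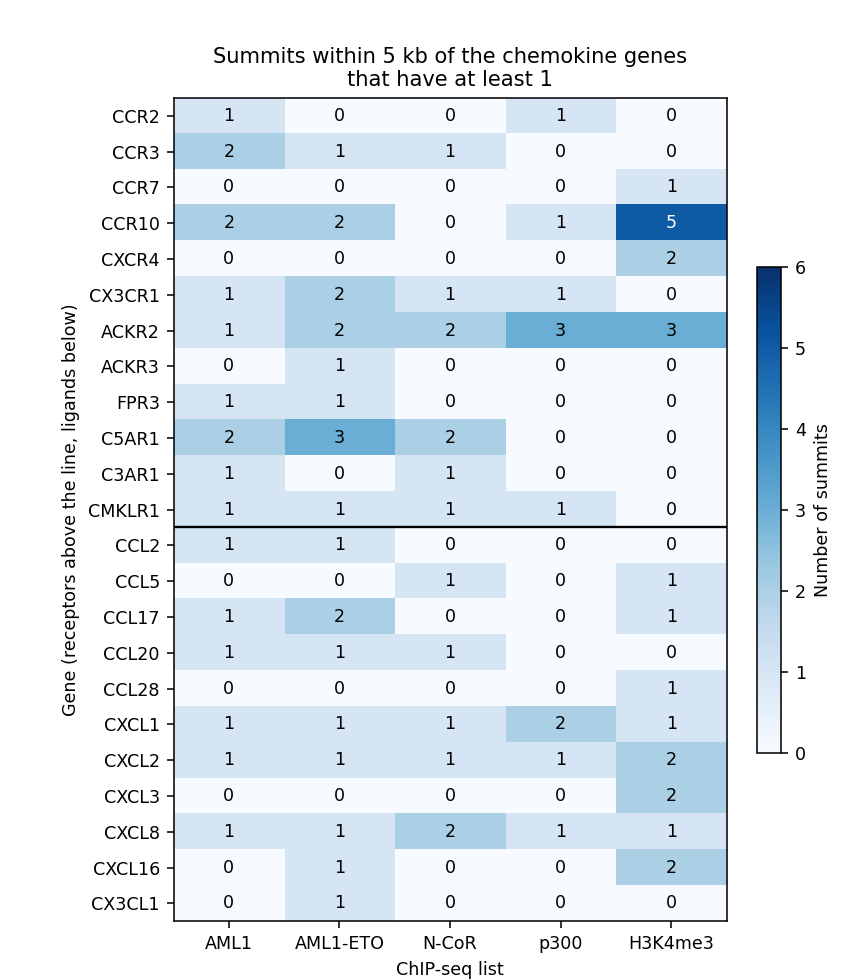
Number of summits (figures in the cells, and colour) within 5 kb of each of the 23 chemokine genes with at least 1 (vertical axis, receptors above the line and ligands below), for each list (horizontal axis). Rows with all 5 lists filled are ACKR2, CXCL1, CXCL2 and CXCL8, while CCR7, CXCR4, CCL28 and CXCL3 are filled for H3K4me3 only.

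Among the 16 chemokine receptors, 4 had a protein summit (background 61.5%): CCR2, CCR3, CCR10 and CX3CR1. CX3CR1 (chr3:39304986-39323226, minus strand), the receptor for fractalkine on monocytes, had the fullest set. Its AML1, N-CoR, AML1-ETO and p300 summits lay at 39302542, 39302570, 39302577 and 39302596, within 54 bp of each other and between 2390 and 2444 bp beyond the 3′ end of the gene. A second AML1-ETO summit, at 39318410 in an intron, was 3117 bp from a start of the gene and stood alone, and its window held TGTGGT. The nearest H3K4me3 summit was 82316 bp from the gene, so CX3CR1 carried all 4 proteins without the mark.

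CCR3 (chr3:46172382-46308197, plus strand), the eotaxin receptor of eosinophils, had AML1, AML1-ETO and N-CoR summits at 46263108, 46263111 and 46263116, a spread of 8 bp. They lay in an intron of its longest transcripts, 20761 bp before the next of its starts, and an additional AML1 summit was found at 46254904. Of all protein-coding genes, the start nearest to these 4 summits was that of CCR1, at 5100 bp for the lone AML1 summit and at 13304 to 13312 bp for the trio. Their assignment to CCR3 therefore rests on its long gene model, and CCR1, a receptor for inflammatory CC chemokines, had no summit within 5 kb.

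CCR10 (chr17:40830907-40835935, minus strand), the receptor for CCL28, had 2 AML1, 2 AML1-ETO and 1 p300 summits, no N-CoR summit, and 5 H3K4me3 summits. The p300 and AML1-ETO summits at 40831881 and 40831922 were in an exon of CCR10, whereas the other protein summits and 4 of the 5 H3K4me3 summits were nearer to a start of the adjoining gene PLEKHH3. The outermost summits counted for CCR10 were 4775 bp (AML1) and 4809 bp (AML1-ETO) from the gene, just inside the limit. No H3K4me3 summit was within 1000 bp of a CCR10 start.

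CCR2, the monocyte receptor for CCL2, had a single AML1 summit 3937 bp upstream, whose window held TGCGGT, and a single p300 summit 689 bp beyond its end. They were more than the length of the gene apart and neither overlapped another list.

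The atypical receptors numbered 5, and ACKR2 and ACKR3 had protein summits (background 61.5%). ACKR2 (chr3:42846244-42929466, plus strand), which removes inflammatory CC chemokines, had 8 protein summits, and no site of it held all 4 proteins. An intronic site joined p300, N-CoR and AML1-ETO at 42888814, 42888849 and 42888872, without AML1, and its AML1-ETO window held AGGAAG 3 times. A p300 summit fell exactly on the first base of the gene, and the H3K4me3 summit 590 bp upstream of it was nearer to the start of HIGD1A, at 271 bp. The last p300 and H3K4me3 summits, at 42922713 and 42922373, were nearer to CYP8B1 than to any other coding start.

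ACKR3, a scavenger of CXCL12, had 1 AML1-ETO summit at 237478335 on chromosome 2, 133 bp upstream of one of its starts. It was the only AML1-ETO summit at a receptor start, and no other list had a summit nearer than 289254 bp to the gene.

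Among the 6 receptors for other chemoattractants, 4 had protein summits (background 61.5%) and 0 had H3K4me3 (background 68.0%). CMKLR1 (chr12:108681821-108733094, minus strand), the chemerin receptor, had p300, N-CoR, AML1-ETO and AML1 at 108707656, 108707691, 108707725 and 108707733 in an intron, 3961 to 4038 bp after a start. C5AR1 (chr19:47793280-47825323, plus strand), the receptor for the complement fragment C5a, had 7 protein summits at 3 places. AML1 and AML1-ETO were called at the identical base at 2 of them, 47818618 in an intron and 47827857 downstream, each with N-CoR, at 92 and 24 bp. The AML1-ETO window at the intronic site held TGTGGT and GAGGAA, and that at the downstream site held none of the 4 words. The coding start nearest to the downstream site was that of C5AR2, a second C5a receptor, at 7575 bp for AML1 and AML1-ETO, against 14739 bp to a start of C5AR1. The third place was an AML1-ETO summit at 47803526, and p300 was nowhere within 16348 bp of the gene.

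C3AR1, the receptor for the complement fragment C3a, had AML1 and N-CoR summits 101 and 103 bp upstream of its start. The nearest AML1-ETO summit was 66661 bp away, so C3AR1 was bound by AML1 and N-CoR at its promoter without a called AML1-ETO peak. Both windows held AGGAAG and the AP-1 sequence TGANTCA. This sequence was found in 0 of the 22 AML1-ETO windows at the chemokine genes (exact Clopper-Pearson 95% interval 0 to 15.4%), an interval that includes the 5.19% of the whole AML1-ETO list. The other protein window that held it was that of N-CoR at the downstream site of C5AR1, 24 bp from an AML1-ETO summit. FPR3, of the formyl peptide receptor family, had AML1 and AML1-ETO summits 50 bp apart in an exon, in windows with TGTGGT. Its neighbours FPR1 and FPR2 had none.

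**Figure D3:**
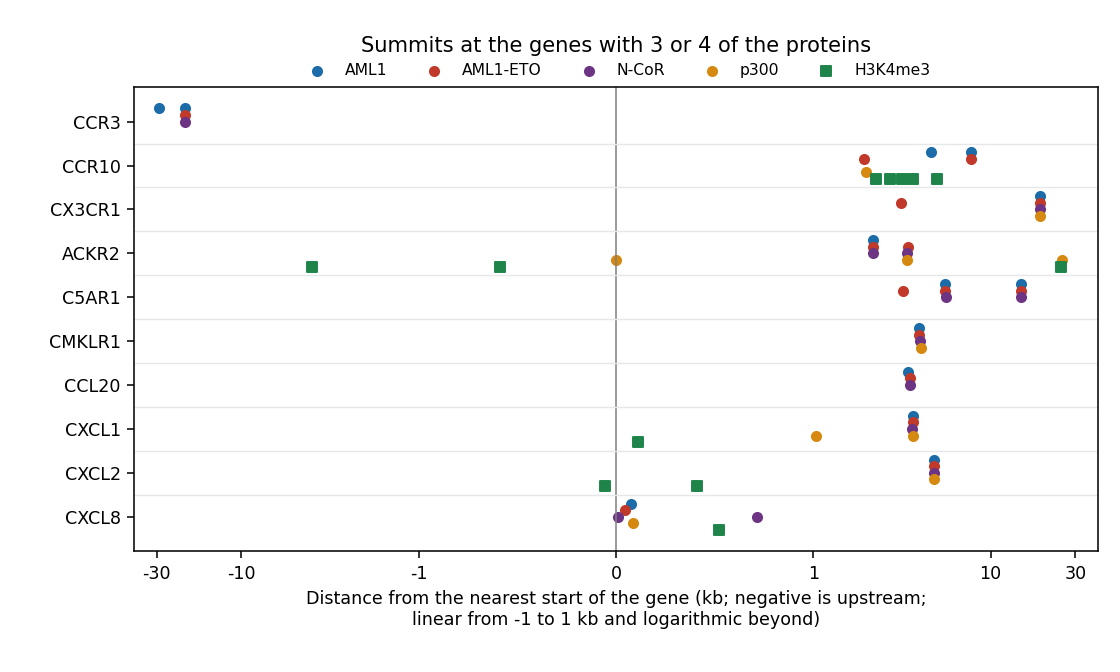
Distance of each summit (kb) from the nearest start of its gene (horizontal axis, negative upstream, linear within 1 kb and logarithmic beyond) for the 10 genes with 3 or 4 of the proteins (vertical axis), with circles for proteins and squares for H3K4me3. Circles of different colours stack at 1 distance where proteins coincide, as at CMKLR1, and at CXCL8 such a stack lies 10 to 84 bp after the nearest start.

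Of the 10 CC ligands, CCL2, CCL5, CCL17 and CCL20 had protein summits (background 61.5%) and 0 had p300 (background 45.5%). CCL20 (chr2:228670455-228682280, plus strand), the ligand of CCR6, had AML1, AML1-ETO and N-CoR summits at 228683484, 228683574 and 228683593, between 1204 and 1313 bp beyond its end. The nearest H3K4me3 summit was 333231 bp from the gene. CCL2, the main attractant of monocytes, had AML1 and AML1-ETO 16 bp apart and 3079 and 3063 bp upstream, in windows with TGCGGT and AGGAAG. CCL17, a ligand of CCR4, had AML1 and AML1-ETO 52 bp apart, 1070 and 1122 bp beyond its end and 3264 and 3316 bp after the inner of its 2 starts, with H3K4me3 53 bp from the AML1 summit, and a lone AML1-ETO summit in an intron whose window held TGTGGT. This was the only place among the 53 genes where an H3K4me3 window overlapped that of a protein.

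CCL5, an attractant of T cells and monocytes, differed from these in having N-CoR alone among the proteins. The gene has 2 annotated starts, and the N-CoR summit lay between them, 312 bp after the outer and 121 bp before the inner one. H3K4me3 was 157 bp after the inner start. AML1-ETO came no nearer than 15635 bp and AML1 no nearer than 15660 bp.

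Among the 14 CXC ligands, protein summits were found at CXCL1, CXCL2, CXCL8 and CXCL16 (background 61.5%). CXCL1, CXCL2 and CXCL8 attract neutrophils through CXCR2, and all 3 had the 4 proteins and H3K4me3. CXCL8 (chr4:74606236-74609433, plus strand) had N-CoR, AML1-ETO, AML1 and p300 at 74606296, 74606333, 74606361 and 74606370, which is 10, 47, 75 and 84 bp after its nearest start. It was the only chemokine gene with the 4 proteins together at its promoter. H3K4me3 peaked further in, at 521 bp, followed by a second N-CoR summit at 714 bp. A site outside the 5 kb limit, between 8.37 kb (p300) and 8.40 kb (AML1 and AML1-ETO) upstream of CXCL8, again held all 4 proteins.

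At CXCL1 (chr4:74735110-74737025, plus strand) the 4 proteins met downstream of the gene, N-CoR, p300, AML1 and AML1-ETO lying at 74738726, 74738735, 74738754 and 74738765, or 1701 to 1740 bp beyond its end. H3K4me3 lay at the start, at 113 bp, and a separate p300 summit at 1030 bp. CXCL2 (chr4:74962757-74964913, minus strand) likewise had the 4 proteins downstream and H3K4me3 at its starts, without a separate p300 summit. Its AML1, AML1-ETO, N-CoR and p300 summits at 74960095, 74960115, 74960125 and 74960126 were 2631 to 2662 bp beyond its end, with H3K4me3 at 56 bp before and 411 bp after a start.

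The sequences at these downstream sites are related. Read on the strand of each gene, an 84-base run of the CXCL1 window matched the CXCL2 site at 76 positions (90.5%), and the 8 bases that differ are in capitals below. This pair was compared after the positions had been seen.

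CXCL1, chr4:74738715-74738798, plus strand: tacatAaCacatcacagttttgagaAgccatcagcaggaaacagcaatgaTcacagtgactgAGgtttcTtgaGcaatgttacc

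CXCL2, chr4:74960034-74960117, minus strand: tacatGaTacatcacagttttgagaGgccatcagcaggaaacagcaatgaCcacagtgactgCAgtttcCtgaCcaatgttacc

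Counted from the first base of the run, the summits at CXCL1 fell on bases 12 (N-CoR), 21 (p300), 40 (AML1) and 51 (AML1-ETO). At CXCL2 they fell on bases 23 (AML1) and 3 (AML1-ETO), and N-CoR and p300 were 8 and 9 bases before it, so the centres did not fall on the same bases of the shared run. No 32-base word of the protein windows at either site occurred elsewhere in the genome. Of the 65 protein windows at the 53 genes, 62 held no such repeated word, and in 3 most of the words occurred elsewhere. CXCL3, the nearest relative of the pair, had H3K4me3 378 bp after one start and 161 bp before another, but no protein summit within 55571 bp. The best match to the CXCL1 window in the 10 kb beyond CXCL3 was at 47 of 72 aligned positions (65.3%).

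**Figure D4:**
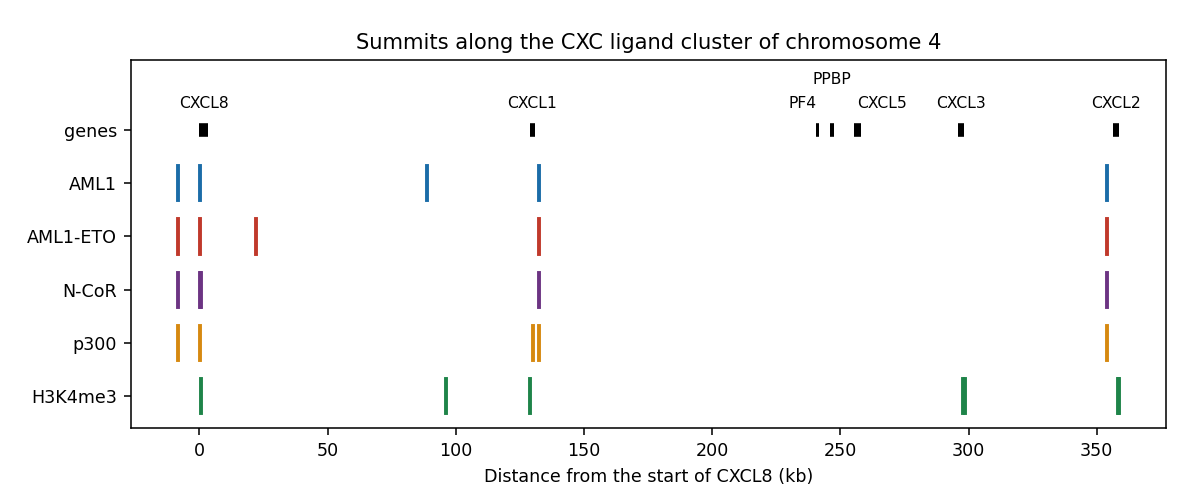
Summits of the 5 lists (vertical axis, coloured ticks) along the CXC ligand genes of chromosome 4, by distance from the start of CXCL8 in kb (horizontal axis), with genes as black bars. Columns of 4 protein ticks stand at CXCL8, upstream of it at 8.40 kb, beyond CXCL1 and beyond CXCL2, and none stands at PF4, PPBP, CXCL5 or CXCL3.

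PF4, PPBP and CXCL5, platelet and neutrophil chemokines that lie between CXCL1 and CXCL3, had no summit in any list. Their nearest protein summits were 107763, 106188 and 95701 bp away. CXCL16, a membrane-bound ligand of CXCR6, had 1 AML1-ETO summit 94 bp beyond its end and 2 of H3K4me3. All 3 were nearer to a start of a neighbour, MED11 or ZMYND15, although 1 H3K4me3 summit was also 196 bp from a start of CXCL16. CX3CL1 (fractalkine), the ligand of CX3CR1, had a lone AML1-ETO summit in an intron, and XCL1 had none. CX3CL1 and CX3CR1 each had AML1-ETO (background 41.3%), and neither had H3K4me3 (background 68.0%). Among the peaks numbered up to the median, CX3CL1 had no AML1-ETO summit. Other pairs differed: the ligands CCL20 and CCL17 had AML1-ETO, while their receptors CCR6 and CCR4 had no summit.

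H3K4me3 without any of the 4 proteins was found at CCR7, CXCR4, CCL28 and CXCL3, and of these only CXCL3 kept that pattern under every alternative run. By nearest coding start CXCR4 had all 4 proteins and CCR7 had AML1-ETO and N-CoR, with 50 kb to either side CCR7, CXCR4 and CCL28 had all 4, and among the peaks numbered up to the median these 3 genes had no H3K4me3. CXCR4 (chr2:136871919-136876747, minus strand) had an H3K4me3 summit at 136875596, 123 bp after its main start, and a further summit at 136876699, 48 bp after its outermost annotated start. The 250 bases before the main start, chr2:136875720-136875969, are given on the minus strand. They are from RefSeq (GRCh38.p14) and were placed on GRCh37 by exact match. Capitals mark the joined ETS and PU.1 sequence and TATAAA.

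CXCR4 promoter: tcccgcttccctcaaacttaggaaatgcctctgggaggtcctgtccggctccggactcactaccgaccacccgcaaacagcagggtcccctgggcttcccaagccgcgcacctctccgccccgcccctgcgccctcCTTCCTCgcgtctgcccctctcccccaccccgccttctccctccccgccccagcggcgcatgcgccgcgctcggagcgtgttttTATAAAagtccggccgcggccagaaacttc

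The sequence is 68.0% G and C, with TATAAA beginning 30 bases before the start. It held AGGAAG and GAGGAA and neither TGTGGT nor TGCGGT. RefSeq has promoters for 2 other CXCR4 starts, further into the gene. The 250 bases before the start at 136875439 held TGCGGT once and none of the other 3 words, and the H3K4me3 summit at 136875596 lay 157 bp upstream of that start. Those before the start at 136873805 held AGGAAG and GAGGAA and neither Runx sequence. Of the 35116 RefSeq promoters of 300 bases, 33.6% held AGGAAG, 27.9% GAGGAA, 13.1% TGTGGT, 7.29% TGCGGT and 11.5% TATAAA on either strand.

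Proteins were found near CXCR4 but outside the limit. The nearest N-CoR summit was 16805 bp from the gene, and those of AML1-ETO, AML1 and p300 were 17550, 17566 and 17569 bp from it, on the upstream side. The AML1-ETO window there, chr2:136894247-136894346, overlapped windows of AML1, p300 and N-CoR. The genome held 2133 AML1-ETO windows that overlapped the other 3 proteins, and 3 of the 34 chemokine genes without a protein summit had such a window within 20 kb: CXCR5 at 6875 bp, XCR1 at 12803 bp and CXCR4 at 17550 bp. This was 8.82% of them, against 161 of the 7768 protein-coding genes without a protein summit (2.07%), and the distance of 20 kb was chosen after these values were seen. At CXCR5, the receptor that leads B cells to follicles, the 4 proteins lay between 6846 and 6895 bp from the gene, the closest approach of all 4 without being counted.

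CCR7, which leads T cells and dendritic cells to lymph nodes, had 1 H3K4me3 summit 226 bp from a start, and its nearest protein summit was AML1-ETO at 17039 bp. CCL28, a mucosal ligand of CCR10 and CCR3, had H3K4me3 290 bp from a start, and its nearest protein summit was p300 at 37575 bp. Counting only starts, H3K4me3 was within 1000 bp of a start at 10 of the 53 genes (18.9%, background 62.3%): CCR7, CXCR4, ACKR2, CCL5, CCL28, CXCL1, CXCL2, CXCL3, CXCL8 and CXCL16. These are 3 of 27 receptors and 7 of 26 ligands. At a start, AML1 was found at 2 genes (3.77%, background 18.6%), AML1-ETO at 2 (background 23.3%), N-CoR at 3 (5.66%, background 13.3%) and p300 at 2 (background 37.0%). CXCL8 was among the genes in each of these 4 counts.

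The 30 genes with no summit were the receptors CCR1, CCR4, CCR6, CCR8, CCR9, CCRL2, CXCR1, CXCR2, CXCR5, CXCR6, XCR1, ACKR1, ACKR4, FPR1 and FPR2, and the ligands CCL1, CCL7, CCL8, CCL22, CCL23, CXCL5, CXCL9, CXCL10, CXCL11, CXCL12, CXCL13, CXCL14, XCL1, PF4 and PPBP. They include CXCR1 and CXCR2, the receptors for CXCL8, and CXCL12, the ligand of CXCR4. Their nearest protein summit was between 5100 bp (CCR1) and 241513 bp (CXCL13) from the gene, with a median of 28635.5 bp, and for 19 of the 30 (63.3%) it was within 50 kb. For the 5202 protein-coding genes without a summit the median was 67775.5 bp, and 41.6% had a protein summit within 50 kb. Their nearest H3K4me3 summit was at least 10650 bp away, and the gene nearest to being counted was CCR1, whose AML1 summit missed the limit by 100 bp.

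**Figure D5:**
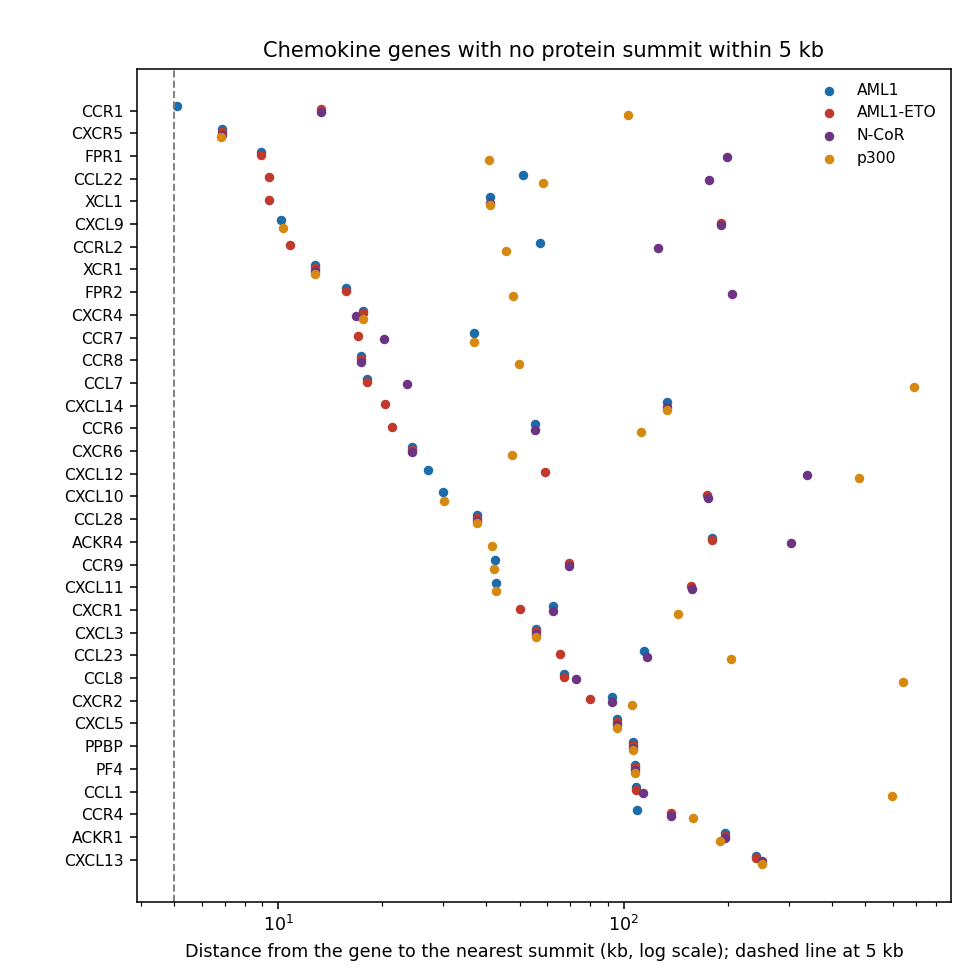
Distance (kb, log axis) from each of the 34 chemokine genes without a protein summit within 5 kb (vertical axis) to the nearest AML1, AML1-ETO, N-CoR and p300 summit. The dashed line marks 5 kb, and CCR1 lies nearest to it at 5100 bp for AML1. The distances of all 4 proteins lie within 100 bp of each other at 7 genes, CXCR5, XCR1, CCL28, CXCL3, CXCL5, PF4 and PPBP. For CXCL3, CXCL5 and PPBP they lead to the same site, that beyond CXCL2. The share among all genes without a protein summit was not counted.

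Over the 53 genes there were 65 protein summits, 18 of AML1, 22 of AML1-ETO, 14 of N-CoR and 11 of p300. Of these, 10 were within 1000 bp of a start of the gene, 4 in exons, 23 in introns, 3 upstream and 25 downstream, and 53 had the counted gene as the nearest coding start. The background was counted as pairs of a gene and a summit, so a summit near more than 1 gene counted for each. At all protein-coding genes, 43.9% of the pairs with a protein were at a start, against 15.4% here. In introns the shares were 35.2% and 35.4%, and downstream 11.0% and 38.5%. With 5 kb to either side, more of the sequence searched lies outside the gene at short genes. The median span was 7419 bp here and 27219 bp for all protein-coding genes, and its part in these shares was not tested. Of the 22 H3K4me3 summits, 13 (59.1%) were at a start, against 74.1% of the H3K4me3 pairs at all protein-coding genes. The protein summits formed 32 sites, of which 15 held 1 protein, 6 held 2, 6 held 3 and 5 held all 4, and 9 sites had H3K4me3 within 1000 bp.

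The overlap between proteins at these genes was set beside that of the whole lists. Of the 22 AML1-ETO summits, 14 overlapped AML1 (63.6%, exact Clopper-Pearson 95% interval 40.7 to 82.8), against 46.2% of the whole list. N-CoR overlapped 11 (50.0%, interval 28.2 to 71.8, whole list 38.9%) and p300 overlapped 7 (31.8%, interval 13.9 to 54.9, whole list 21.8%). All 3 intervals include the value of the whole list, and they cover counting error over peaks only. The order, AML1 before N-CoR before p300, was that of the whole list.

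The Runx sequence TGTGGT was found in 4 of the 22 AML1-ETO windows (18.2%, interval 5.19 to 40.3), against 31.3% of all AML1-ETO windows, at CX3CR1, CCL17, C5AR1 and FPR3. TGCGGT was found in 5 (22.7%, interval 7.82 to 45.4), against 9.48%, among them windows at CX3CR1, CCR10, CCL2 and CCL17. AGGAAG was found in 12 (54.5%, interval 32.2 to 75.6, whole list 37.5%) and GAGGAA in 10 (45.5%, interval 24.4 to 67.8, whole list 26.0%). The 4 intervals again include the values of the whole list, so no difference was detectable with 22 windows. At the AML1 windows, TGCGGT was found in 6 of 18 (33.3%, interval 13.3 to 59.0), against 12.9% of the AML1 list, and here the interval lies above that value, the only such case among 20 intervals of this kind. These windows are not independent of the AML1-ETO windows, since 14 of the 18 overlap one.

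A list of 30 genes that act downstream of chemokine receptors, among them G protein subunits, receptor kinases, arrestins, RGS proteins and regulators of Rac, was chosen by name for comparison. AML1 was found at 26 of them (background 34.9%), AML1-ETO at 29 (41.3%), N-CoR at 27 (26.7%), p300 at 21 (45.5%) and H3K4me3 at 27 (68.0%), and all 4 proteins at 19 (63.3%, background 15.4%). None of the 30 was without a summit (background 25.8%). The genes with the most protein summits were PTK2B (36), a kinase of the focal adhesion family, PREX1 (30), an activator of Rac, the receptor kinases GRK2 (26) and GRK5 (24), and ELMO1 and VAV1 (21 each), which also act on Rac. Their median span was 46218.5 bp, and the part of gene length in these counts was not tested. AML1-ETO had 35.7 summits per Mb around them (all protein-coding genes 9.22), N-CoR 23.9 (5.03), AML1 20.3 (5.86), p300 16.0 (6.64) and H3K4me3 18.6 (12.4). H3K4me3 was at a start of 27 of the 30 signalling genes and of 10 of the 53 receptors and ligands (background 62.3%).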

How the data were processed

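The authors aligned reads to GRCh37 (hg19) with Bowtie 0.12.8, pooled 2 biological replicates per antibody and called peaks with MACS2 2.0.10.20131216 at p below 1e-20. The deposited lists hold positions only, as windows of 100 bp (a summit with 50 bp to either side) with numbered names, without a score, height, ratio or p-value. Read depth is not given in them, and no input list was used here. Per the submitters' processing notes, CASAVA 1.6 was also used. The meaning of the peak number is not given in the sources used here.

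Gene models were those of GENCODE release 44 lifted to GRCh37, restricted to protein-coding genes outside the mitochondrial chromosome. A summit was counted for a gene within its span and 5 kb to either side. Windows overlapped when they shared at least 1 bp, and a start region was within 1000 bp of any annotated start of the gene. Elements were assigned in the order start region, exon, intron, upstream, downstream. Sequences were searched on both strands of the 100 bp windows. RefSeq promoters were matched by symbol for 38 of the 53 genes. The CXCL1 and CXCL2 sites were compared by local alignment in Biopython 1.88. Intervals are exact Clopper-Pearson 95%. No test was made, since there was 1 list per antibody. Counting was tested on simulated peaks.

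Genes with at least 3 of the 4 proteins, and CXCR4, were described site by site, and the AML1-ETO windows overlapping most lists, at most 8 with ties by lower peak number, were printed. In both, 1 site is left out and is not reported here, though it is counted in the totals. The genes and lists were chosen with earlier results of these data known. Alternatives were other distances, assignment by nearest start, canonical transcripts, the peaks of each list with lower numbers up to the median, other window widths and other Runx sequences. Sequences were read with pysam 0.24.0 from a genome indexed by samtools 1.23.1, intervals were computed in SciPy 1.17.1 with numpy 2.4.6 under Python 3.11.15, and figures were drawn with matplotlib 3.10.9.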

Additional observations from a re-analysis of the deposited data

How the results depend on the processing

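Among the 12 results recomputed, 38 alternative values stayed within 1.5 times the reported count, or within the interval of a share, and 15 did not. With the gene body alone, AML1 was found at 6 genes (background 23.0%), N-CoR at 6 (18.1%) and p300 at 5 (29.8%), since many summits lie just beyond the genes. With 50 kb to either side, AML1 was found at 35 genes (66.0%, background 59.8%), AML1-ETO at 34 (64.2%, 66.5%), N-CoR at 23 (43.4%, 48.7%), p300 at 27 (50.9%, 64.4%) and H3K4me3 at 27 (50.9%, 80.9%), and 9 genes (17.0%, 12.9%) had no summit. When each summit was given to the nearest coding start at any distance, AML1-ETO was found at 27 genes (background 40.9%) and N-CoR at 17 (26.9%), and the shares of AML1, AML1-ETO and N-CoR were above those of all genes rather than below. CXCR4 then had all 4 proteins, and CCR7 had AML1-ETO and N-CoR. With only the peaks numbered up to the median of each list, p300 was found at 4 genes (background 27.9%), H3K4me3 at 4 (51.7%), and H3K4me3 without a protein at 1 (17.4%), CXCL3, since the H3K4me3 summits of CCR7, CXCR4 and CCL28 have higher numbers. Of the 6 genes with all 4 proteins, ACKR2, CMKLR1, CXCL2 and CXCL8 then lacked at least 1 of them, as CX3CR1, CXCL1 and CXCL2 did with the gene body alone. With the peaks numbered up to the median, the shares of AML1-ETO (24.5%, background 24.4%) and N-CoR (17.0%, background 13.8%) were also not below the background, nor was that of AML1 at 50 kb. Counting TGCGGT as well as TGTGGT gave 40.9% of the AML1-ETO windows, against 39.3% of the whole list. The counts of overlap with AML1, N-CoR and p300 and of H3K4me3 at starts changed by less than 1.5 times under every alternative run for them. A stricter p threshold could not be applied, since the lists hold no score. No paired analysis was possible because the replicates were pooled into 1 list per antibody, and for the same reason no replicate could be left out. The absence of a summit means only that none passed the authors' threshold at a depth not given in the lists.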
